A study of Boehmeria nivea with 18 samples.

Results

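The 105 genes described here are annotated ramie genes that stood higher in the bark of the middle stem than in that of the top stem, out of 20840 annotated genes in the files. Members were chosen by their measured levels: a gene was a member if its lowest level in the middle stem was at least 3 times its highest level in the top stem and its middle-stem mean was at least 2 FPKM (fragments per kilobase of transcript, scaled to the depth of the library). The rule was met by 111 genes, and 6 of these were left out because their IDs are among 13 set aside by name. The levels that chose the members are those compared below, so the differences between the sections are a description and carry no test.

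Ramie (Boehmeria nivea, cultivar Zhongzhu No. 1) was sampled as bark from the top part of the stem (TPS), where the secondary walls of the fiber cells have not yet begun to form, and from the middle part of the stem (MPS), where these walls are thickening. Each section had 3 libraries, and each library came from 5 plants that were 40 days old by the labels, while the methods of the study give another age. No treatment or genetic change was applied in either section. Ribosomal RNA was removed before the whole transcriptome was sequenced. The paper calls the 3 replicates of each section biological, and the labels do not say whether they are separate plantings.

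Bast fibers are phloem cells of the bark that first elongate and then lay down a thick, cellulose-rich secondary wall. Bark also holds sieve elements, parenchyma, cambium-derived cells, epidermis and, in older stem, developing periderm, whose cork cells are coated with suberin, a polyester of fatty acids and phenolics. Phenylpropanoid and flavonoid pathways, peroxidases and defence proteins are active in several of these cell types. In bulk bark, a larger share of one cell type and more RNA per cell cannot be told apart.

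Expected counts summed to between 49056682 and 52971221 per library, of which 33.8% to 35.7% fell on annotated genes, and between 16000 and 17023 annotated genes were listed. The summed level of 5 secondary wall markers (CESA7, FLA12, the IRX1 ortholog BntWG10024039 and the laccases BntWG10014338 and BntWG10014339) was 115, 30.03 and 24.4 FPKM in TPS replicates 1, 2 and 3 and 101, 381 and 420 FPKM in MPS replicates 1, 2 and 3. In replicate 1, TPS was therefore at the level of MPS for these markers, while replicates 2 and 3 were far apart. BntWG10014338 was listed at 0 in every TPS library and reached at most 0.16 FPKM. The epidermis and cuticle markers (6 genes) summed to 18.1 to 39.6 FPKM in TPS and 3.06 to 7.45 FPKM in MPS, mostly from KCS19 and ROC2. WIN1 and CER1 were at 0 in every MPS library and reached only 0.30 and 0.14 FPKM in TPS. The dividing-cell markers (4 genes) summed to 101 to 258 FPKM in TPS and 23.2 to 39.9 FPKM in MPS, nearly all from CYCU2-1. CYCD6-1 was at 0 in every MPS library and reached only 0.14 FPKM in TPS. The photosynthetic markers (4 genes) summed to between 3.88 and 6.09 FPKM in TPS and between 0.62 and 2.33 FPKM in MPS. Most of the TPS sum was BntWG10000221. BntWG10000771 and BntWG10005528 were at 0 in TPS and at 0.18 FPKM in MPS replicate 1 and 0.86 FPKM in MPS replicate 2. The 2 markers of dying tracheary elements summed to between 1.30 and 4.51 FPKM in TPS and between 0.33 and 0.97 FPKM in MPS. The sieve element marker SEOB was at 0.02 to 0.21 FPKM in TPS and 0.49 to 2.73 FPKM in MPS. The part of these cell types in the members' levels was not tested.

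The members were mostly genes of low to moderate level. Their MPS means ran from 2.04 to 509 FPKM with a median of 6.65 FPKM, and 38 of the 105 reached 10 FPKM, while the median of their TPS means was 0.07 FPKM. On the scale of log2(mean FPKM + 0.5), the median difference between MPS and TPS was 3.20 over the 105 members and 0.00 over the 20840 genes, a gap that the rule sets. In 28 members every TPS library was listed at 0. Among the 77 others, TPS replicate 1 held the highest TPS value in 28, replicate 2 in 26 and replicate 3 in 23.

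**Figure D1:**
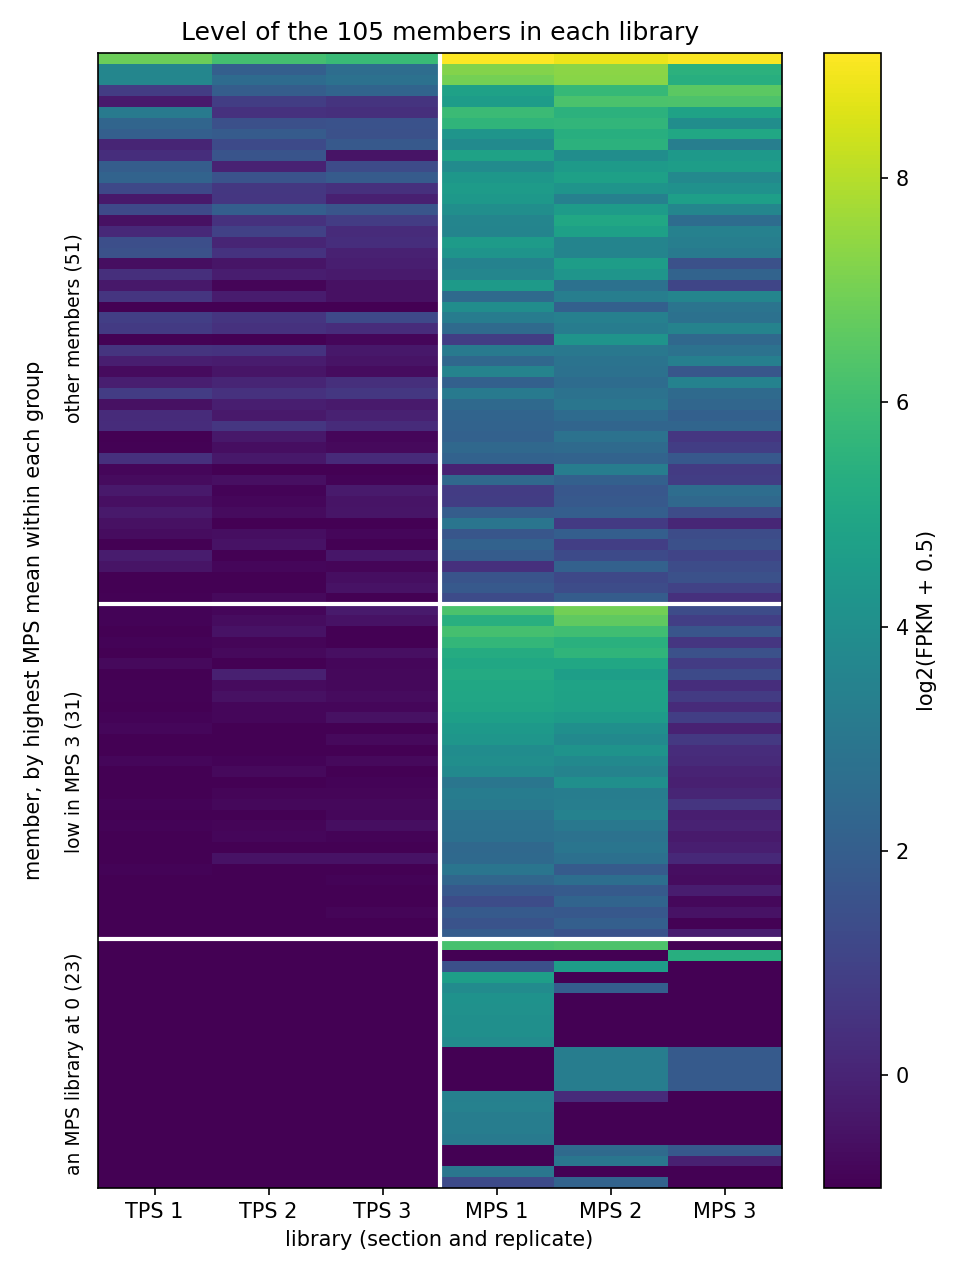
Level of the 105 members (rows) in the 6 libraries (columns) as log2(FPKM + 0.5), in blocks of 51, 31 and 23 genes that differ in how the 3 MPS libraries behave. All 3 TPS columns are dark in the lower blocks, MPS replicate 3 is darker than MPS replicates 1 and 2 in the middle block, and MPS libraries at 0 appear in the last block.

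The members were not alike in how the 3 MPS libraries behaved, which the rule did not fix beyond the lowest value. In 31 members MPS replicate 3 was under 0.2 times the lower of MPS replicates 1 and 2, and in 23 members at least 1 MPS library was listed at 0. In the remaining 51 members the highest MPS library was a median of 2.55 times the lowest, and within 2 times of it in 16. These 3 groups were drawn after the values were seen. A gene with every TPS library and its lowest MPS library at 0 meets the fold condition because 3 times 0 is 0, so all 23 of the last group are members through the level of 1 or 2 MPS libraries.

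Near the threshold on the fold, the closest members were BntWG10018597, whose lowest MPS level was 3 times its highest TPS level, BntWG10002767 (an MLP328 match) at 3.06 times and BntWG10010704 (DIR23) at 3.12 times. Just outside it were BntWG10001638, matched to the phospholipase NPC3, at 2.99 times, BntWG10006448, a cytochrome P450 match, at 2.97 times and BntWG10025534 at 2.97 times. At the level of 2 FPKM, the members with the lowest MPS means were BntWG10013280, BntWG10025808 and BntWG10021407, at 2.04, 2.04 and 2.05 FPKM. The nearest genes under it were BntWG10004912, BntWG10011982 and BntWG10025152, at 1.99, 1.99 and 1.97 FPKM.

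**Figure D2:**
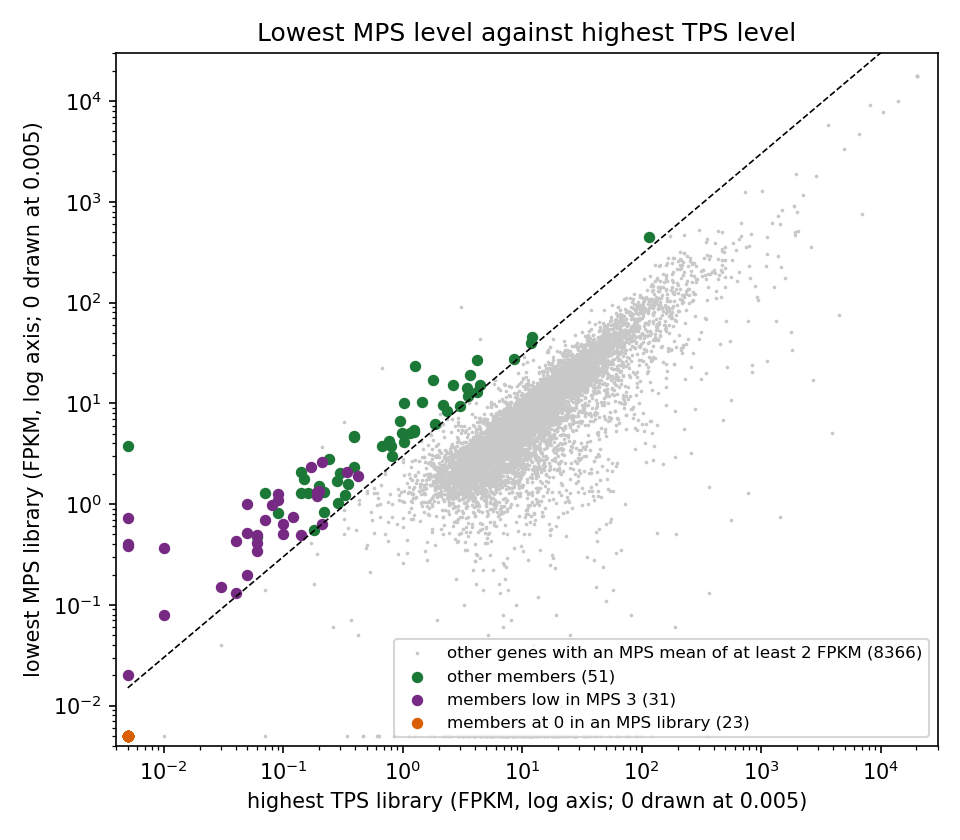
Lowest MPS level against highest TPS level (FPKM, log axes, values of 0 drawn at 0.005) for the 105 members and 8366 other genes with an MPS mean of at least 2 FPKM. The dashed line is 3 times the TPS level, members are on or above it apart from the 23 with an MPS library at 0, which share the lower left corner, and the grey points above the line are the IDs set aside.

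By edgeR's quasi-likelihood test on expected counts, 74 of the 105 members passed the filter on low counts and 17 of them were called higher in MPS, at an adjusted p under 0.05 and a log2 fold change of at least 1. Over all genes, 33 of 13585 were called higher, 0.243%, and 76 lower. Nothing is read from the members' count, since the same contrast chose them, and a member with TPS libraries near 0 passed the filter through its MPS libraries. With the replicate number as a block, 20 genes were called higher (0.147%), 15 of them members, of which 12 were among the remaining 51 and 3 among the 31 low in MPS replicate 3. All 17 calls fell among the remaining 51 members, of which 50 were tested. Of the 31 members low in MPS replicate 3, 24 were tested and edgeR without the block called 0, although all 24 had an unadjusted p under 0.05 and DESeq2 called 24. DESeq2 called 388 of 13511 genes higher (2.87%), 74 of them members. The 23 members with an MPS library at 0 were all removed by the filter.

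Names were at hand for few members. Swiss-Prot matches were taken from a partial copy of the study's list of changed genes, which ends at ID BntWG10011758, and 31 members have an ID within its range. Of these, 30 have a Swiss-Prot match and 1, BntWG10001671, has none. The other 74 members are given by their IDs. Gene roles below are those known for the matched protein in the species named, not shown in ramie.

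Of the remaining 51 members, the highest level was that of a short gene without a name at hand. BntWG10015251, with a coding length of 330 bases, was at 114, 67.6 and 57.3 FPKM in TPS and at 553, 447 and 526 FPKM in MPS replicates 1, 2 and 3, a mean of 508.6 ± 54.9 against 79.8 ± 30.4 FPKM (SD, n = 3), 6.38 times as much. It ranked 48 of all 20840 genes by MPS mean. Among the members, those most like it over the 6 libraries, by Pearson correlation of log2(FPKM + 0.5), were BntWG10021310 (r = 0.994), BntWG10003136 (r = 0.984) and BntWG10026380 (r = 0.979). Only members were compared, and the rule itself makes any pair of members alike.

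BntWG10023565 and BntWG10019436 followed, both higher in MPS replicates 1 and 2 than in replicate 3. BntWG10023565 was at 12.1, 3.67 and 5.56 FPKM in TPS and at 148, 164 and 45.3 FPKM in MPS. BntWG10019436 was at 11.9, 5.29 and 6.41 FPKM in TPS and at 129, 158 and 39.6 FPKM in MPS. The 6 libraries had the same order in these 2 genes, and their lowest MPS values were above their highest TPS values by less than 4 times.

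BntWG10028328 ran the other way among the MPS libraries. It was at 0.34, 1.27 and 0.93 FPKM in TPS and at 23.4, 74.6 and 77.3 FPKM in MPS, lowest in replicate 1. BntWG10016894 was at 8.6, 0.84 and 0.77 FPKM in TPS and at 58.6, 44.9 and 27.7 FPKM in MPS, so that TPS replicate 1 stood above the other TPS libraries.

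Phenolic metabolism had the most members of any list apart from the plastid-encoded genes. Of the 33 genes listed under flavonoid and phenylpropanoid metabolism, 5 were members, and 3 more met the rule but are among the IDs set aside. Of the 33, 22 were tested, with 4 called higher and 2 called lower by edgeR. Of the 4 called higher, only BntWG10009236 is a member, and the others are among the IDs set aside. At an unadjusted p under 0.05, 10 were higher and 9 lower, and DESeq2 called 9 higher and 8 lower. The median log2 fold change of the 22 was -0.04, against 0.02 over all genes tested. The list was drawn from genes that the study had found changed in these samples, so its counts are not independent evidence.

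BntWG10010704 matched the Arabidopsis dirigent protein DIR23, from a family that steers the coupling of phenoxy radicals into lignans and related products. It was at 0.53, 1.90 and 3.03 FPKM in TPS and at 13.9, 45.1 and 9.44 FPKM in MPS, 12.5 times as much by the means. MPS replicate 2 was above the other MPS libraries by more than 3 times. The lowest MPS value was above the highest TPS value by little more than 3 times. Other DIR23 matches among the listed genes did not share one direction. BntWG10011348 was at 1.5, 1.09 and 3.45 FPKM in TPS and at 0, 0 and 0.15 FPKM in MPS. Its log2 fold change was -5.16, and edgeR did not call it lower (adjusted p = 0.123). BntWG10010837, not tested by edgeR, was at 0.16 to 0.31 FPKM in TPS and at 0.33 to 2.08 FPKM in MPS.

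BntWG10009236 matched Arabidopsis DTX41 (TT12), a transporter of the vacuole membrane that loads flavonoids in the seed coat. Its levels were 1.32, 0.99 and 1.88 FPKM in TPS and 8.98, 10.02 and 6.25 FPKM in MPS, 6.03 times as much by the means. BntWG10011644 matched the petunia flavonoid 3',5'-hydroxylase CYP75A3, which adds hydroxyl groups to the B ring of flavonoids. It was at 0.11, 0.16 and 0.03 FPKM in TPS and at 4.89, 3.80 and 1.28 FPKM in MPS. In both genes MPS replicate 3 was the lowest MPS library.

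BntWG10007826 matched an apple polyphenol oxidase, a copper enzyme that oxidizes phenols to quinones. It was at 0.02, 0 and 0.07 FPKM in TPS and at 1.29, 18.1 and 4.90 FPKM in MPS. The MPS libraries of this gene differed by more than 10 times, with replicate 1 the lowest. The other matches to this enzyme among the listed genes did not share one direction. BntWG10007827 was at 77.2, 482 and 505 FPKM in TPS and at 0.06, 1.00 and 1.63 FPKM in MPS (log2 fold change -8.64, edgeR adjusted p = 0.0741), and BntWG10007828 was at 0.65, 5.48 and 8.04 FPKM in TPS and at 0, 0 and 0.02 FPKM in MPS. BntWG10000775 was at 0.19 to 1.03 FPKM in TPS and at 1.35 to 3.46 FPKM in MPS.

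Enzymes that oxidize other substrates followed. BntWG10011549 matched the grape peroxidase 4, of the class III peroxidases of the plant cell wall, and was the member with the highest MPS mean among those with a name. It was at 1.25, 3.48 and 4.23 FPKM in TPS and at 27.2, 54.4 and 94.99 FPKM in MPS, a mean of 58.9 ± 34.1 against 2.99 ± 1.55 FPKM (SD, n = 3), 19.7 times as much. Replicate 1 was the lowest library and replicate 3 the highest in both sections. Of the 21 redox enzymes listed, 8 were tested, with 1 called higher and 2 lower. The 1 called higher, BntWG10000504, is among the IDs set aside, and BntWG10011549 was not called (edgeR adjusted p = 0.068). The 2 called lower matched peroxidase 3 of horseradish, BntWG10003938 at 38.7 to 101 FPKM in TPS and 6.29 to 9.28 FPKM in MPS, and BntWG10004995 at 2.13 to 4.57 FPKM in TPS and 0.39 to 0.50 FPKM in MPS.

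BntWG10003136 matched soybean CYP93A1, a cytochrome P450 of pterocarpan phytoalexin synthesis. It was at 0.95, 0.89 and 0.29 FPKM in TPS and at 8.32, 7.69 and 6.61 FPKM in MPS, 10.6 times as much by the means, and its MPS libraries were among the closest of the named members. BntWG10001371 matched the yew taxadiene 5-alpha hydroxylase, a cytochrome P450 of taxane synthesis. It was at 0.39, 0.53 and 0.80 FPKM in TPS and at 3.76, 5.51 and 10.8 FPKM in MPS, 11.6 times as much by the means. Of the 16 other cytochrome P450 genes listed, 5 were tested, with 1 called higher and 0 called lower by edgeR, 4 higher and 1 lower at an unadjusted p under 0.05, and 3 higher and 1 lower by DESeq2. Of 22 terpenoid genes, 11 were tested, with 1 called higher and 0 lower by edgeR. The 1 called higher, BntWG10004457, is among the IDs set aside, and BntWG10001371 was not called (edgeR adjusted p = 0.0625). At an unadjusted p under 0.05, 5 terpenoid genes were higher and 2 lower, and DESeq2 called 4 higher and 2 lower.

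Transport and hydrolysis were each represented among the members. BntWG10010242 matched HKT6 of rice, of a family of sodium and potassium transporters. It was at 4.18, 2.49 and 3.29 FPKM in TPS and at 19.7, 26.1 and 13.1 FPKM in MPS, a mean of 19.6 ± 6.51 against 3.32 ± 0.845 FPKM (SD, n = 3). Of 48 transport genes, 18 were tested, with 2 called higher and 0 lower by edgeR, 4 higher and 10 lower at an unadjusted p under 0.05, and 3 higher and 9 lower by DESeq2. The 2 called higher were HKT6 and DTX41. BntWG10008512 matched Arabidopsis CXE12, a carboxylesterase, at 0.77, 0.37 and 0.34 FPKM in TPS and at 11.8, 18.9 and 4.20 FPKM in MPS, so that its MPS libraries differed by more than 4 times.

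The defence list was led by BntWG10005743, whose Swiss-Prot match was the potato chitin-binding lectin 1, a glycoprotein that binds chitin, the polymer of fungal walls. Its other listed match was a low-temperature-induced cysteine proteinase-like protein of papaya, so the matches differ and its identity as a lectin is not settled. It was at 4.48, 2.27 and 2.42 FPKM in TPS and at 48.9, 50.3 and 15.2 FPKM in MPS, 12.5 times as much by the means, with replicate 3 the lowest MPS library. Of 66 defence and immune receptor genes listed, 3 were members. Of the 66, 22 were tested, with 1 called higher, BntWG10005743, and 1 called lower, BntWG10010250, a chitinase match. At an unadjusted p under 0.05, 5 were higher and 7 lower, and DESeq2 called 5 higher and 6 lower. The median log2 fold change of the 22 was -1.89. BntWG10002767 matched Arabidopsis MLP328, of the major latex protein family. It was at 0.18, 0 and 0 FPKM in TPS and at 7.16, 1.13 and 0.55 FPKM in MPS.

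**Figure D3:**
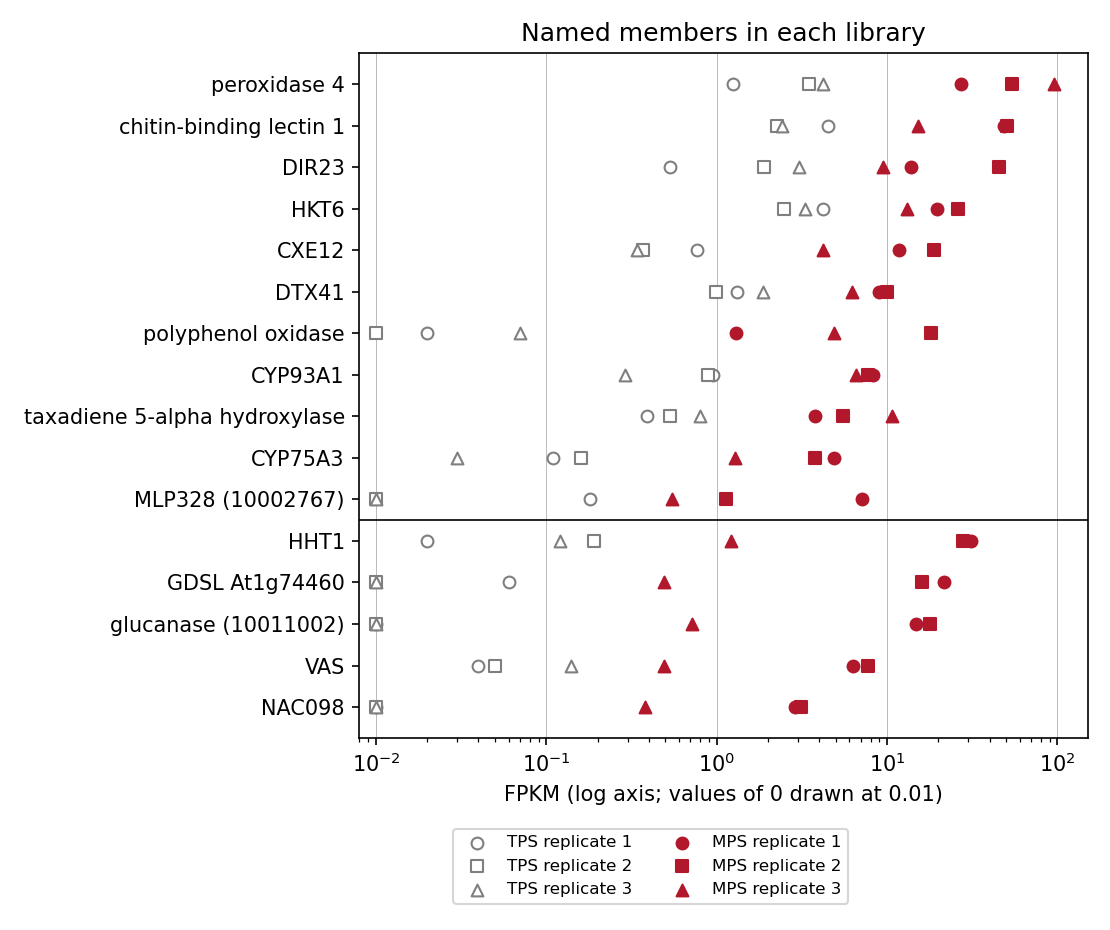
FPKM (log axis, values of 0 drawn at 0.01) of 16 named members in the 6 libraries, with open grey symbols for TPS and filled red symbols for MPS. In the 11 genes above the line MPS replicate 3 is at least 0.2 times the lower of the other MPS libraries, while in the 5 genes below it MPS replicate 3 (triangle) is at 0.38 to 1.21 FPKM and MPS replicates 1 and 2 are at 2.90 to 30.9 FPKM.

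Among the members listed in every MPS library, MPS replicate 3 was set apart in many. Of the 82 such members, 31 had MPS replicate 3 under 0.2 times the lower of MPS replicates 1 and 2, 37.8%, and 0 had MPS replicate 1 or MPS replicate 2 that low. Of all 8271 genes with an MPS mean of at least 2 FPKM and a value in every MPS library, 74 had MPS replicate 3 that low (0.895%), 110 had MPS replicate 1 that low (1.33%) and 17 had MPS replicate 2 that low (0.206%). The 31 members are thus also among the 74. The rule asks only that the lowest MPS library be 3 times the highest TPS library, which excludes genes that are low in 1 MPS library and not lower still in TPS, so the shares are not a test.

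In the 31 members MPS replicate 3 stood at 0.0081 to 0.15 times the lower of the other 2, with a median of 0.0487, and the next member outside was at 0.218. MPS replicates 1 and 2 were within 2 times of each other in 27 of the 31. Levels were 2.05 to 75.1 FPKM in MPS replicate 1, 2.46 to 125 FPKM in MPS replicate 2 and 0.02 to 2.64 FPKM in MPS replicate 3, and no TPS library exceeded 0.42 FPKM. In the 27 with a value in TPS, MPS replicate 3 was still above the highest TPS library by a median of 6.83 times. These genes were therefore near their floor in TPS, low in MPS replicate 3 and high in 2 of the 3 MPS libraries.

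The secondary wall markers did not share one pattern over the MPS libraries. CESA7, FLA12 and the IRX1 ortholog BntWG10024039, which carry nearly all of the summed level, were lowest in MPS replicate 1 and highest in MPS replicate 3, with CESA7 at 46.4, 150.7 and 162 FPKM in MPS replicates 1, 2 and 3. The laccase BntWG10014339 was low in MPS replicate 3 like the 31 members, at 0.01, 0.06 and 0.05 FPKM in TPS and at 1.87, 0.60 and 0.07 FPKM in MPS, and the laccase BntWG10014338 was at 0.03, 0.16 and 0.01 FPKM in MPS. The part of cell makeup in these differences was not tested.

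**Figure D4:**
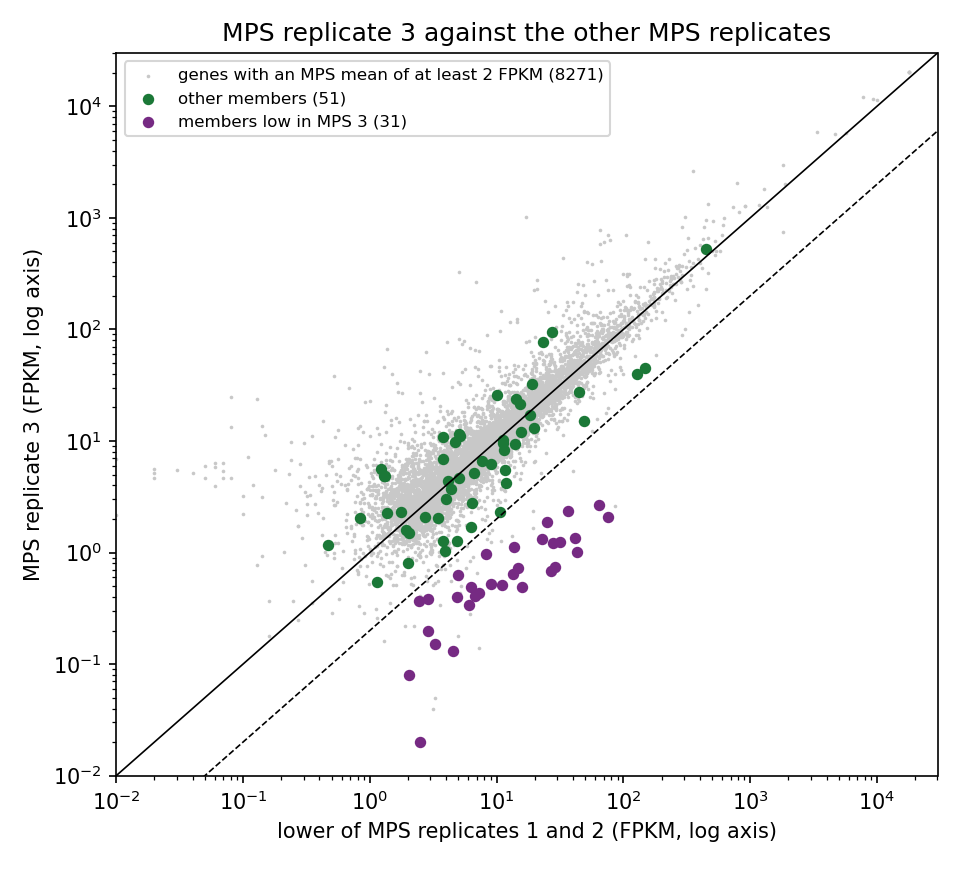
MPS replicate 3 against the lower of MPS replicates 1 and 2 (FPKM, log axes) for the 82 members listed in every MPS library and, in grey, all 8271 genes with an MPS mean of at least 2 FPKM and every MPS library above 0. The solid line marks equal levels and the dashed line 0.2 times, and 31 members fall below the dashed line.

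Of the 31, 5 have a Swiss-Prot match, and 3 of these matches act on lipids or their polymers. BntWG10010510 matched HHT1, the feruloyl transferase that joins ferulate to omega-hydroxy fatty acids of suberin. It was at 0.02, 0.19 and 0.12 FPKM in TPS and at 30.9, 27.8 and 1.21 FPKM in MPS. Another HHT1 match among the listed genes, BntWG10009464, is not a member and went the other way. That gene was at 0.45, 0.42 and 1.5 FPKM in TPS and at 0, 0.1 and 0.05 FPKM in MPS. Its log2 fold change was -3.97, and edgeR did not call it lower (adjusted p = 0.192). BntWG10005555 matched the GDSL esterase/lipase At1g74460, of a family with members that build or break down lipid polyesters, at 0.06, 0 and 0 FPKM in TPS and at 21.6, 15.9 and 0.49 FPKM in MPS. BntWG10010555 matched the lipid transfer-like protein VAS, at 0.04, 0.05 and 0.14 FPKM in TPS and at 6.29, 7.75 and 0.49 FPKM in MPS. In all 3 members, MPS replicates 1 and 2 were within 1.5 times of each other and replicate 3 was lower by more than 10 times.

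The other matches were a defence enzyme and a regulator. BntWG10011002 matched the basic glucan endo-1,3-beta-glucosidase of peach, an enzyme that cuts callose and fungal wall glucan, and it was at 0 in all TPS libraries and at 14.8, 17.9 and 0.72 FPKM in MPS. BntWG10006965 matched CUP-SHAPED COTYLEDON 2 (NAC098), a NAC transcription factor of organ boundaries in Arabidopsis, at 0 in all TPS libraries and at 2.90, 3.14 and 0.38 FPKM in MPS. It was the only member among the 57 transcription factors listed, and it was not tested by edgeR. Another NAC match, BntWG10005545, met the rule but is among the IDs set aside. Of the 57, 25 were tested, with 1 called higher, BntWG10005545, and 1 called lower.

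The higher levels of this kind belonged to genes without a name at hand. BntWG10028396 was at 0.04, 0.07 and 0.34 FPKM in TPS and at 75.1, 125 and 2.08 FPKM in MPS. BntWG10013881 was at 0.03, 0.13 and 0.20 FPKM in TPS and at 41.2, 100 and 1.36 FPKM in MPS. BntWG10022098 was at 0, 0.21 and 0 FPKM in TPS and at 70.2, 64.3 and 2.64 FPKM in MPS. In each, MPS replicate 3 was above every TPS library and far under the other MPS libraries.

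In the 23 members with an MPS library at 0, all 3 TPS libraries were listed at 0 too. In 12 of them the gene was listed in a single MPS library, which was replicate 1 in 11 genes and replicate 3 in 1. In the other 11 it was listed in 2 MPS libraries, replicates 1 and 2 in 5 genes and replicates 2 and 3 in 6. Over all genes with an MPS mean of at least 2 FPKM, 200 of 8471 had at least 1 MPS library at 0 (2.36%). Some of these members match genes that most plant cells use, so a 0 is given only as listed and the values are given by library, means being used only where the rule does.

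Among the genes listed in a single MPS library, a plastid gene had the highest value. BntWG10003770 matched the plastid RNA polymerase subunit rpoB of mulberry and was listed at 39.5 FPKM in MPS replicate 3 and at 0 in the 5 other libraries, from 1037 expected counts. Of 16 genes with matches encoded in plastids, 7 were members: this rpoB, 2 copies of ycf4, a photosystem I assembly factor, and 4 copies of the ribosomal protein rpl2. The ycf4 copies BntWG10001178 and BntWG10001197 were both at 15.7 FPKM in MPS replicate 1 alone. The rpl2 copies BntWG10001347, BntWG10001348, BntWG10002149 and BntWG10002150 were all at 0, 9.16 and 3.14 FPKM in MPS. These 6 members share all their values with another member, so reads of near-identical copies cannot be told apart and the 7 plastid members stand for fewer separate measurements. Of the 16 genes, 2 were tested, and edgeR called 0 higher and 0 lower, with 1 higher at an unadjusted p under 0.05 and 0 called by DESeq2.

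LNK2 and BntWG10015497 had the same pattern in MPS replicate 1. BntWG10009147 matched LNK2, a coactivator of the Arabidopsis circadian clock, and was at 17.01 FPKM in MPS replicate 1, from 1788 expected counts, and at 0 in every other library. BntWG10015497, which the study's paper names as a ramie MYB gene, was at 17.2 FPKM in MPS replicate 1 and at 0 in every other library. Other genes listed in this library alone were BntWG10000976 (cytochrome b5, 10.5 FPKM), BntWG10001021 (WLIM2b, a LIM protein that bundles actin, 9.26 FPKM) and BntWG10002987 (HSP17.6A, a small heat shock protein, 9.14 FPKM). Without a name at hand, BntWG10016663 (24.6 FPKM), BntWG10021839 (14.1 FPKM), BntWG10017585 (8.46 FPKM) and BntWG10029219 (7.32 FPKM) were also listed in MPS replicate 1 alone. How reads were divided between an annotated coding sequence and transcripts assembled at the same place is not known here, and its part in these zeros was not tested.

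Members in 2 of the MPS libraries included a gene of high level. BntWG10020167 was at 70.6 FPKM in MPS replicate 1, 77.5 FPKM in MPS replicate 2 and 0 in MPS replicate 3. BntWG10004578, a second match of MLP328, was at 2.29, 24.1 and 0 FPKM in MPS. BntWG10011001, another match of the peach glucanase, was at 9.96, 0.70 and 0 FPKM in MPS. Further matches of this glucanase among the listed genes were not members and did not share one pattern. BntWG10003318 was at 5.05, 2.94 and 0 FPKM in MPS, while BntWG10003319 was at 0.83, 13.41 and 13.75 FPKM, highest in replicate 3. BntWG10002091 matched RDR1, an RNA-dependent RNA polymerase of Arabidopsis antiviral silencing, and was at 0, 7.38 and 0.46 FPKM in MPS. BntWG10022221 was at 14.2, 3.61 and 0 FPKM in MPS, and BntWG10021336 at 0, 5.12 and 2.99 FPKM. The 5 genes listed in replicates 1 and 2 but at 0 in replicate 3 share with the 31 genes above that replicate 3 is the low library.

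The other 5 of the 28 members at 0 in every TPS library were listed in all MPS libraries. Besides BntWG10011002 and BntWG10006965, these were BntWG10025297 at 14.98, 3.76 and 6.89 FPKM, BntWG10012821 at 4.9, 7.1 and 0.4 FPKM and BntWG10020464 at 2.47, 3.67 and 0.02 FPKM in MPS. In 4 of the 5, MPS replicate 3 was under 0.2 times the others, with BntWG10025297 the exception.

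Some members lie beside each other by their IDs. Of the 105, 14 have an ID next to that of another member, in 7 pairs, and 2 of the pairs are the identical rpl2 copies. In the glucanase pair BntWG10011001 and BntWG10011002, both genes were at 0 in TPS and lowest in MPS replicate 3. In the pair BntWG10013280 and BntWG10013281, MPS replicates 1, 2 and 3 were at 1.92, 4.19 and 0 FPKM in the first and at 32.3, 28.7 and 0.74 FPKM in the second. BntWG10030209 and BntWG10030210 were lowest in MPS replicate 1 and highest in MPS replicate 3, at 5.08, 9.47 and 11.7 FPKM and at 4.74, 6.69 and 9.86 FPKM. Whether neighbours by ID are neighbours in the genome was not analysed here.

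The coding lengths of the members ran from 330 to 2502 bases with a median of 1010 bases, against 1160 bases over all genes. The median was 1120 bases in the remaining 51 members, 1010 bases in the 31 low in MPS replicate 3 and 579 bases in the 23 with an MPS library at 0.

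Lists of other functions held few or no members, while 31 of the 964 genes that the lists were drawn from were members. Little is read from a count of 0 in lists of this size. Of 34 genes of cell wall polysaccharides, 0 were members. Of these, 23 were tested, with 0 called higher and 3 lower by edgeR, 2 higher and 17 lower at an unadjusted p under 0.05, and 2 higher and 16 lower by DESeq2, and their median log2 fold change was -2.41. The genes called lower were FUT1 (BntWG10005553), the IRX15-L match BntWG10008444 and the endoglucanase 11 match BntWG10010905. Of 41 hormone genes, 0 were members and 16 were tested, with 0 called in either direction by edgeR, 1 higher and 11 lower at an unadjusted p under 0.05, and 1 higher and 8 lower by DESeq2. Of 10 genes of chlorophyll and light, 0 were members and 4 were tested, with 0 called by edgeR, 1 lower at an unadjusted p under 0.05 and 1 lower by DESeq2.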

How the data were processed

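The 6 transcriptome tables were used, and small RNA and circRNA tables were not used here. Per the paper, the authors aligned reads of the rRNA-depleted libraries with Bowtie2 and estimated the deposited expected counts with RSEM. The authors derived FPKM from the same alignments. The lowest FPKM listed is 0.01, and unlisted transcripts were set to 0. Other deposited values were transcript lengths, which for annotated genes are all multiples of 3 and were called coding lengths. Software versions of these upstream steps were not stated.

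Rounded expected counts of genes, assembled coding transcripts and lncRNAs were compared between MPS and TPS in one fit with edgeR 4.0.16 (TMM, filterByExpr, quasi-likelihood test) in R 4.3.3, with Benjamini-Hochberg adjustment over 13585 genes. DESeq2 1.42.0 and limma 3.58.1 on log2(FPKM + 0.5) were alternatives. The common dispersion was 0.366. The fit was tested on simulated data that held no replicate effect, so that test does not cover the differences between replicates seen here. Summaries used Python 3.11.15 with numpy 2.4.6 and pandas 2.3.3, and plots matplotlib 3.10.9. The p-values measure the spread between these libraries, which may be partly technical. Their number and depth limit the precision.

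Pairing was checked by correlating, over genes, how far libraries of one number lay from their section means. The correlations were 0.490, 0.202 and 0.233 for replicates 1, 2 and 3, all above 0.1, which was taken as pairing. Between different numbers, TPS replicate 2 with MPS replicate 3 gave 0.240 and TPS replicate 3 with MPS replicate 2 gave 0.151, so that only replicate 1 stood apart by number. Counts with the block are given in the report. Adjusted p-values of single genes and edgeR calls within lists are from the fit without the block.

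The members and lists were chosen with earlier results of these data known. Named were members with a Swiss-Prot match in a list, the members of highest MPS mean, those at 0 in every TPS library, and the genes nearest the threshold. Names of further members were added after their values were seen. The lists came from a partial copy of the study's table of changed genes (964 genes), and columns of the authors' own comparisons were not used.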

Additional observations from a re-analysis of the deposited data

How the results depend on the processing

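The rule gave 105 genes. It gave 164 at 2 times and 62 at an MPS mean of at least 5 FPKM, and 87 at 4 times, 143 at a mean of 1 FPKM and 96 with TMM-normalized reads per kilobase, 92 of them members. Without 1 library at a time it gave 99 to 254 genes, the most without TPS replicate 1, and 182 without MPS replicate 3. Chosen after seeing the data, a rule that asks for every MPS library above 0 gave 82.

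Genes called higher by edgeR numbered 33, and 388 with DESeq2, 114 and 113 with limma on log2(FPKM + 0.5) and log2(FPKM + 0.1), 4 with no filter, 20 with the replicate block and 118 with a term for replicate 1. Members called numbered 17, and 74, 40, 45, 2, 15 and 34 in the same order. Without 1 library, genes called numbered 0 to 7 and members 0 to 5. The 0 came without any library other than TPS replicate 1, while 72 to 85 members then had an unadjusted p under 0.05. The median log2 fold change of the 74 tested members was 4.93, and 4.55 to 5.32 without 1 library. Members low in MPS replicate 3 numbered 31, 27 at 0.1 times, 44 at 0.5 times and 31 with TMM-normalized values. With 3 libraries a section and TPS values near 0, the calls rest on few libraries.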
